A study of Homo sapiens with 2 samples.

Results

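The genes described here build the entry and exit machinery of the endoplasmic reticulum (ER): translocation of new proteins across its membrane, removal of their signal peptides, attachment of N-linked glycans, and export in COPII vesicles. A list of 48 gene symbols defined the set, and it was matched to the array annotation by symbol, with the brightest probe set standing for a gene that has several. Of the 48 genes, 46 have a probe set of their own and SEC61G and KDELR2 were not analysed here. The series as a whole holds 18377 genes, of which 11469 passed a filter on dim signals (brighter array at or above a log2 signal of 4.01), and the 46 genes are all among these.

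Total RNA of LP-1 was read on 2 Affymetrix arrays with probes along the whole transcript. LP-1 is a long-established line of human multiple myeloma, a cancer of antibody-secreting plasma cells. HIF2A cells had been infected with the vector pRUF-IRES-GFP carrying a full-length human HIF-2α cDNA and express it stably, HIF-2α being the product of EPAS1 and a part of the transcription factor that responds to low oxygen. Vector control cells carried pRUF-IRES-GFP alone, so both lines share the IRES-GFP cassette. Each group has 1 array, so no test across samples, SD or p-value can be had, a difference between the arrays has no replicate check, and the number of arrays limits the precision.

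EPAS1 had 9.05 log2 units in HIF2A cells, against 3.70 in vector control cells, the direction the labels give. All 9 plasma cell markers passed the filter, with SLAMF7 at 4.24 in HIF2A cells, against 6.63 in vector control cells, and TNFRSF17 at 7.68, against 8.71, the 2 markers at least 2-fold lower. The 23 measured markers of B, T and NK, myeloid, stromal, erythroid and endothelial cells reached at most 4.91 in HIF2A cells and 4.72 in vector control cells. Of those 23 markers 6 passed the filter, and their part in the differences below was not tested.

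As background, the signal recognition particle (SRP) binds the signal peptide as it leaves the ribosome and docks at its receptor on the ER, where the Sec61 channel takes the chain in. Signal peptidase then cuts the signal peptide, and oligosaccharyltransferase (OST) transfers a preformed glycan to asparagine residues. Folded cargo is gathered into vesicles by the COPII coat, and escaped ER residents are brought back by KDEL receptors. Plasma cells expand all of these steps, largely under the transcription factor XBP1, because antibodies are secreted glycoproteins.

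Taken by number, the machinery was mostly slightly higher in HIF2A cells. Of the 46 genes, 32 were higher and 14 lower, where 52.6% of all 11469 genes were higher and 46.1% lower. Differences are given as HIF2A minus vector control on the log2 scale, and their median over the set was 0.15, beside 0.03 over all genes. The median signal of the 46 genes was 8.145 in HIF2A cells and 7.95 in vector control cells. Most differences were small: 40 of the 46 lay within 1.5-fold, or 0.585 on the log2 scale. Over all genes the scaled median absolute deviation of the differences, a robust SD, was 0.341. At least 1.5-fold higher were 5 genes, SEC24A, TRAM2, SRP19, RPN2 and TMED10, against a background of 5.67% of all genes, and at least 1.5-fold lower was 1, SPCS3, against 4.76%. At least 2-fold higher were SEC24A and TRAM2 (2 genes, with 0.706% of all genes), and 0 were at least 2-fold lower (0.732% of all genes). These counts describe the 2 arrays and were not tested.

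**Figure D1:**
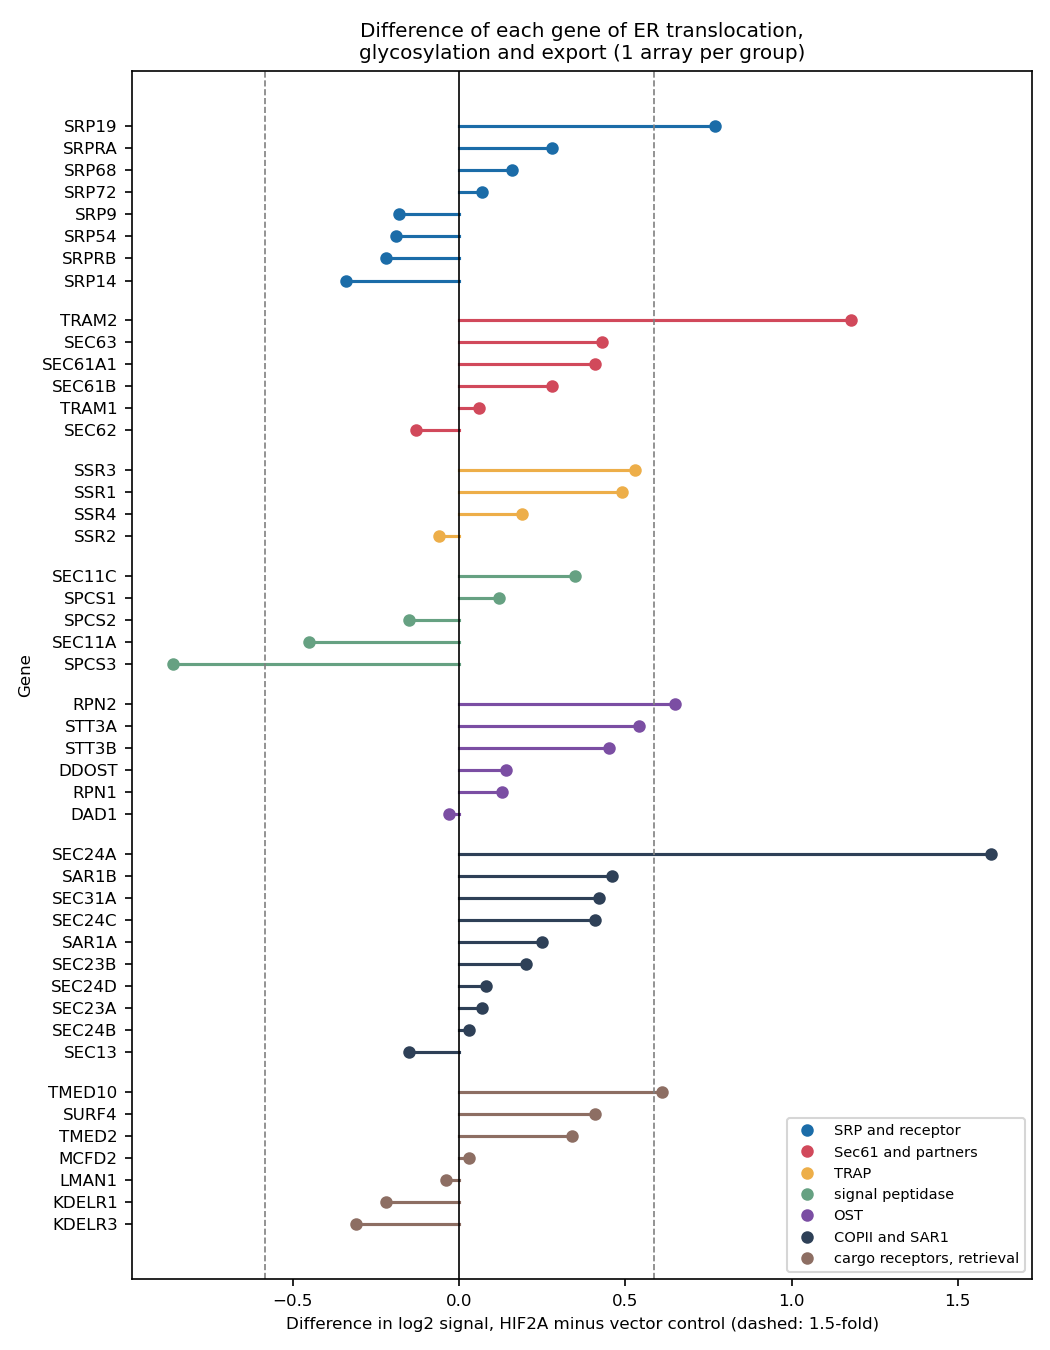
Difference in log2 signal (HIF2A minus vector control, horizontal axis) of each of the 46 genes (rows), coloured and grouped by role, with dashed lines at 1.5-fold. SEC24A at 1.60 and TRAM2 at 1.18 lie farthest to the right and SPCS3 at -0.86 farthest to the left, and the 9 COPII genes to the right of 0 contrast with the signal peptidase genes, 3 of 5 of which lie to the left.

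**Figure D2:**
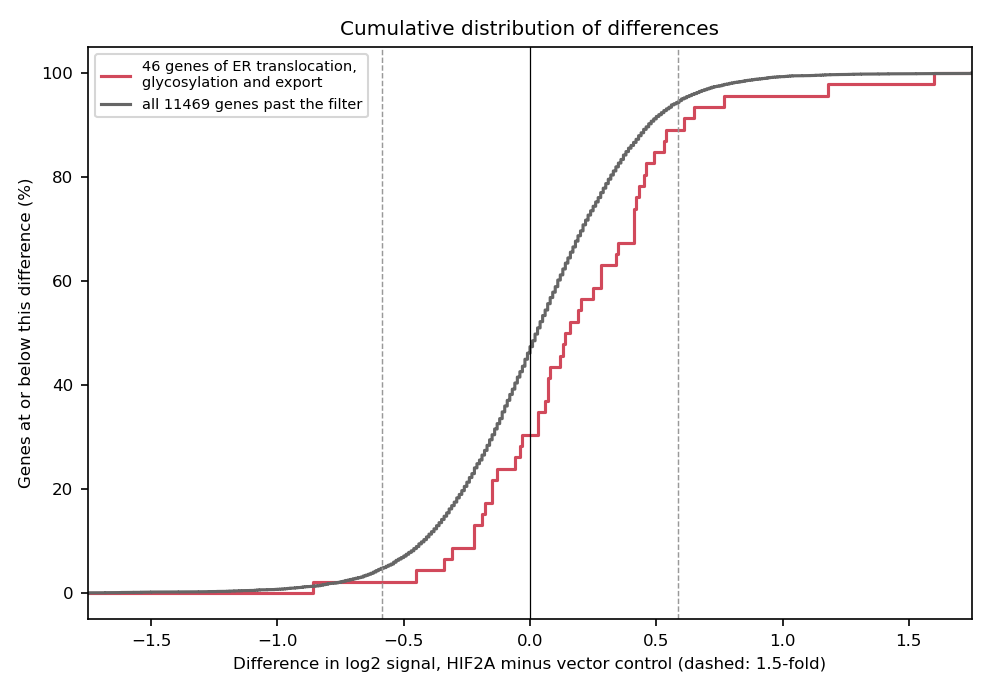
Cumulative share of genes (vertical axis, percent) at or below each difference in log2 signal (horizontal axis, HIF2A minus vector control) for the 46 genes in red and all 11469 genes past the filter in grey, with values beyond the axis drawn at its ends and dashed lines at 1.5-fold. The red curve lies right of the grey one over most of the range, with medians of 0.15 and 0.03.

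The start regions of the genes at both ends of the range are shown first, because stress-responsive secretory genes are known to carry short elements there. Each is 300 bases of RefSeq sequence, build GRCh38.p14, running from 250 bases before to 50 bases after the annotated start, 5′ to 3′ on the gene's strand. Capitals mark matches on either strand to the letters ACGTG, TGACGTGG or GCGTG.
SEC24A, chr5:134648535-134648834, plus strand: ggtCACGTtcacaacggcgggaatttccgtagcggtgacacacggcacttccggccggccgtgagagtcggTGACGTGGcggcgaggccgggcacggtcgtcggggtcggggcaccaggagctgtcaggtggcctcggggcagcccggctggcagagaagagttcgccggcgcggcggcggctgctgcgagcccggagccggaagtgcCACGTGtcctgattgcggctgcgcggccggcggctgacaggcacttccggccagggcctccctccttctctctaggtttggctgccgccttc
TRAM2, chr6:52577011-52577310, minus strand: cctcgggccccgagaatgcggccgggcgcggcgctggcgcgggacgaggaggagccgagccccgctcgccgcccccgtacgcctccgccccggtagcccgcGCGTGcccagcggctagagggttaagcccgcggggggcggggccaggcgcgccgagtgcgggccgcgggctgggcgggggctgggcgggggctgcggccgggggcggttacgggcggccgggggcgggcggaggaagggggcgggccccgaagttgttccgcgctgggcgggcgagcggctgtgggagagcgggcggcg
SPCS3, chr4:176319716-176320015, plus strand: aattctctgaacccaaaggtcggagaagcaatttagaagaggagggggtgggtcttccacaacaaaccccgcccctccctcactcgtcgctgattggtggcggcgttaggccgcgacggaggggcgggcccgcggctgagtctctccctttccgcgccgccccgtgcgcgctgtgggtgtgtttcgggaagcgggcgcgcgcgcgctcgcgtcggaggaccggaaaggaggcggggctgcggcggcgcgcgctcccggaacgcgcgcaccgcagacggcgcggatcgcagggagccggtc
SEC11A, chr15:84716090-84716389, minus strand: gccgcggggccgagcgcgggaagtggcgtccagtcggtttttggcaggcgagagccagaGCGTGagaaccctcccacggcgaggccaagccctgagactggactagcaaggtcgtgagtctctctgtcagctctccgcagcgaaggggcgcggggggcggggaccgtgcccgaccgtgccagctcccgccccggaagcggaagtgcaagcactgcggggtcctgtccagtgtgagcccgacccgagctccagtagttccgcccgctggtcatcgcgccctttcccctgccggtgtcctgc
SEC24A and TRAM2 had the largest positive differences of the 46 genes, and SPCS3 and SEC11A the largest negative ones. The SEC24A window holds ACGTG and TGACGTGG, those of TRAM2 and SEC11A hold GCGTG alone of the letters searched, and that of SPCS3 holds none of them.

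The motif searched as TGACGTGG, on both strands, is an unfolded protein response element bound by ATF6 and XBP1, and it contains the letters ACGTG. Of 41 genes of the set with a RefSeq window, 7 hold it, which is 17.1%. The share was 0.927% of 27305 genes with such a window and 1.21% of the 9140 of them that also passed the filter. Some genes have several windows, such as SEC31A with 4, and a match in any of them counted, here and below. The stretches around the match, with 12 bases on each side, are shown so that the flanks can be compared. They are read 5′ to 3′ on the strand of the motif, which is in capitals, and their coordinates are in GRCh38.p14.
SEC24A, chr5:134648594-134648625: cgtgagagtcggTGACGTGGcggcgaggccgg
SRP19, chr5:112861163-112861194: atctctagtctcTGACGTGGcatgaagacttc
SSR3, chr3:156554147-156554178: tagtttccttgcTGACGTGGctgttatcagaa
SSR4, chrX:153794527-153794558: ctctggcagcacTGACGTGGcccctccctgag
SEC23A, chr14:39103220-39103251: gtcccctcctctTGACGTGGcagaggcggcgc
SEC62, chr3:169966778-169966809: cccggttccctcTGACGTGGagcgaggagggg
KDELR3, chr22:38468038-38468069: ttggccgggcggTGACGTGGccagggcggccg
The matches begin between 4 and 179 bases before the annotated start. In the order shown the differences of these genes were 1.60 for SEC24A, 0.77 for SRP19, 0.53 for SSR3, 0.19 for SSR4, 0.07 for SEC23A, -0.13 for SEC62 and -0.31 for KDELR3. Genes with the motif thus lie on both sides of 0, with 5 higher and 2 lower. SPCS3 and SEC11A, the lowest of the set, lack it, and so do TRAM2, RPN2 and TMED10, at 1.18, 0.65 and 0.61. The median of 0.19 with the motif is close to the 0.16 of the 33 measured genes whose windows lack it. Over all genes past the filter the medians were 0.12 with the motif and 0.04 without, and 60.4% and 53.6% of these genes were higher.

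The shorter core ACGTG, which is part of TGACGTGG and is also one form of the hypoxia response element, was in the window of 27 of the 41 genes (65.9%), beside 24.9% of all genes with a window and 32.5% of those past the filter. The other form, GCGTG, was in 22 of the 41 (53.7%), beside 40.6% and 58.1%. Of the 26 measured genes with ACGTG, 19 were higher and 7 lower in HIF2A cells, and their median was 0.295, whereas the 14 without it divided into 7 and 7 with a median of -0.005. Over all genes past the filter the medians were 0.05 with ACGTG and 0.03 without, and 54.8% and 53.2% of these genes were higher. For GCGTG, the 21 measured genes with it divided into 15 higher and 6 lower with a median of 0.19. The 19 without it divided into 11 and 8 with a median of 0.14. Over all genes past the filter, medians with and without GCGTG were 0.03 and 0.04, and 53.2% and 54.4% were higher. The full ER stress response element, in which CCAAT and CCACG stand 9 bases apart, was in 0 of the 41 genes and in 0.0916% of all genes with a window. A match of letters is a description of the sequence only. SRPRA, SPCS1, RPN1, STT3B, TRAM1, SEC24D and KDELR2 have no window in the table used.

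The SRP and its receptor went both ways, 4 genes higher and 4 lower, with a median of -0.055. SRP19, which helps SRP54 join the particle's RNA, had a log2 signal of 7.24 in HIF2A cells, against 6.47 in vector control cells. This is 1.71-fold higher, and 251 of the 11469 genes had a larger difference. SRP19 lies on chromosome 5, where its 20 nearest measured genes had a median difference of 0.305, and after subtracting this median its own difference was 0.465, short of 1.5-fold. SRP54, the subunit that binds the signal peptide, had 7.13 in HIF2A cells and 7.32 in vector control cells. SRP9 and SRP14 form the part of the particle that slows elongation, and both were lower in HIF2A cells: SRP14 had 6.83, against 7.17, and SRP9 had 8.0, against 8.18. The brighter of the 2 SRP9 probe sets stands, by its number, among probe sets of chromosome 10, while the gene lies on chromosome 1. The dimmer one stands among those of chromosome 1 and had 7.22 in HIF2A cells, against 7.36 in vector control cells, a difference of -0.14 beside the -0.18 of the brighter one. SRP68 and SRP72, which bind each other on the particle, differed by 0.16 and 0.07. The receptor's subunits differed in sign, with SRPRA, which meets SRP54, at 0.28 and its membrane anchor SRPRB at -0.22, all 4 within 1.5-fold.

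Channel genes were higher in HIF2A cells in 5 of 6 cases, with a median of 0.345. SEC61A1, which forms the pore, had 9.52 in HIF2A cells, against 9.11 in vector control cells, and the small subunit gene SEC61B had 9.03, against 8.75. SEC63, a membrane J protein that recruits the chaperone BiP to the channel, had 8.60 in HIF2A cells and 8.17 in vector control cells, while its partner SEC62 had 5.86 and 5.99. SEC62 was the 1 channel gene with a negative difference, -0.13.
TRAM2 stood out among them. Its log2 signal was 8.28 in HIF2A cells, against 7.10 in vector control cells, a 2.27-fold difference that 39 of all genes exceeded. TRAM proteins sit beside the channel and help some chains into the membrane, and TRAM2 is known for its part in collagen synthesis. Its chromosomal neighbours had a median of -0.045, and less their median TRAM2 differed by 1.225. The paralogue TRAM1 had 9.61 in HIF2A cells and 9.55 in vector control cells, a difference of 0.06.

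The translocon-associated protein (TRAP) complex, which assists some signal peptides at the channel, had a median of 0.34 over its 4 genes. SSR3 had 9.37 in HIF2A cells, against 8.84 in vector control cells, and SSR1 had 9.73, against 9.24, differences of 0.53 and 0.49. SSR4 differed by 0.19, and SSR2, with 10.30 in HIF2A cells and 10.36 in vector control cells, by -0.06, so all 4 genes lay within 1.5-fold.

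Signal peptidase was the group with the lowest median, -0.15 over 5 genes, of which 3 were lower in HIF2A cells. SPCS3, an accessory subunit needed for cleavage, had 8.76 in HIF2A cells, against 9.62 in vector control cells. That is 1.82-fold lower, and 147 of the 11469 genes had a more negative difference. Its 20 nearest measured genes on chromosome 4 were lower too, with a median of -0.535, and relative to them SPCS3 differed by -0.325, within 1.5-fold. The catalytic subunits are alternatives to each other and had opposite signs. SEC11A had 7.63 in HIF2A cells and 8.08 in vector control cells, whereas SEC11C had 8.10 and 7.75, differences of -0.45 and 0.35. Neither reached 1.5-fold. Their neighbours had medians of the same signs, -0.055 around SEC11A and 0.11 around SEC11C, and relative to these the genes differed by -0.395 and 0.24. SPCS1 and SPCS2 differed by 0.12 and -0.15. SPCS2 has a second, dimmer probe set that stands among those of chromosome 1 by number, while the gene lies on chromosome 11, and it differed by -0.12.

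OST genes were higher in 5 of 6 cases, with a median of 0.295. RPN2, a structural subunit, had 8.83 in HIF2A cells, against 8.18 in vector control cells, which is 1.57-fold higher, and 453 genes had a larger difference. The 2 catalytic subunits mark 2 forms of the enzyme, STT3A working on chains as they pass the channel and STT3B on sites that were missed. Both were higher: STT3A had 10.29 in HIF2A cells, against 9.75, and STT3B had 8.90, against 8.45. At 0.54 STT3A lies just inside the 1.5-fold line and at 0.61 TMED10 just outside it, so the count of 5 depends on small gaps. DDOST and RPN1, subunits common to both forms, differed by 0.14 and 0.13. DAD1, the subunit first found as a defender against cell death, had 11.43 in HIF2A cells and 11.46 in vector control cells.

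Among the 10 COPII genes 9 were higher in HIF2A cells, with a median of 0.225. SEC24A, 1 of 4 paralogues that select cargo into the coat, had the largest difference of the whole set. Its log2 signal was 6.64 in HIF2A cells, against 5.04 in vector control cells, a 3.03-fold difference that 12 of the 11469 genes exceeded. With 32 added to each linear value, which shrinks dim signals, it came to 1.02 log2 units. The other SEC24 genes differed less: SEC24C by 0.41, SEC24D by 0.08 and SEC24B by 0.03. SEC24C had 7.38 in HIF2A cells, against 6.97 in vector control cells, SEC24D had 5.88, against 5.80, and SEC24B had 7.66, against 7.63. SEC24A lies on chromosome 5 among genes with a median of 0.255, and SEC24B and SEC24D lie on chromosome 4 among genes with medians of -0.38 and -0.25. Relative to their neighbours the 4 paralogues differed by 1.345 for SEC24A, 0.50 for SEC24C, 0.41 for SEC24B and 0.33 for SEC24D.
The outer coat gene SEC31A had 7.75 in HIF2A cells, against 7.33, whereas its partner SEC13, which also serves nuclear pores, had 6.77, against 6.92 in vector control cells. SAR1A and SAR1B encode the GTPase that starts coat assembly. SAR1B had 7.21 in HIF2A cells, against 6.75, and SAR1A had 7.90, against 7.65. SAR1B shares with SEC24A a neighbour median of 0.255. SEC23B and SEC23A, which activate the GTPase within the inner coat, differed less: SEC23B had 7.92 in HIF2A cells, against 7.72 in vector control cells, and SEC23A had 6.15, against 6.08.

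Cargo receptors and retrieval genes had a median of 0.03 over 7 genes, 4 higher and 3 lower. TMED10, a p24 protein that carries GPI-anchored cargo and cycles between ER and Golgi, had 8.45 in HIF2A cells, against 7.84 in vector control cells, which is 1.53-fold higher. Its p24 partner TMED2 had 9.66, against 9.32, and SURF4, a receptor for soluble secreted proteins, had 8.92, against 8.51. LMAN1 and MCFD2 form the receptor for coagulation factors V and VIII, and they differed by -0.04 and 0.03. The KDEL receptor genes measured were both lower in HIF2A cells: KDELR1 had 7.63, against 7.85, and KDELR3 had 4.01, against 4.32. KDELR3 is the dimmest gene of the set, near the 95th percentile of 339 olfactory receptor genes, 3.58 in both arrays, and the stricter filter removed it.

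**Figure D3:**
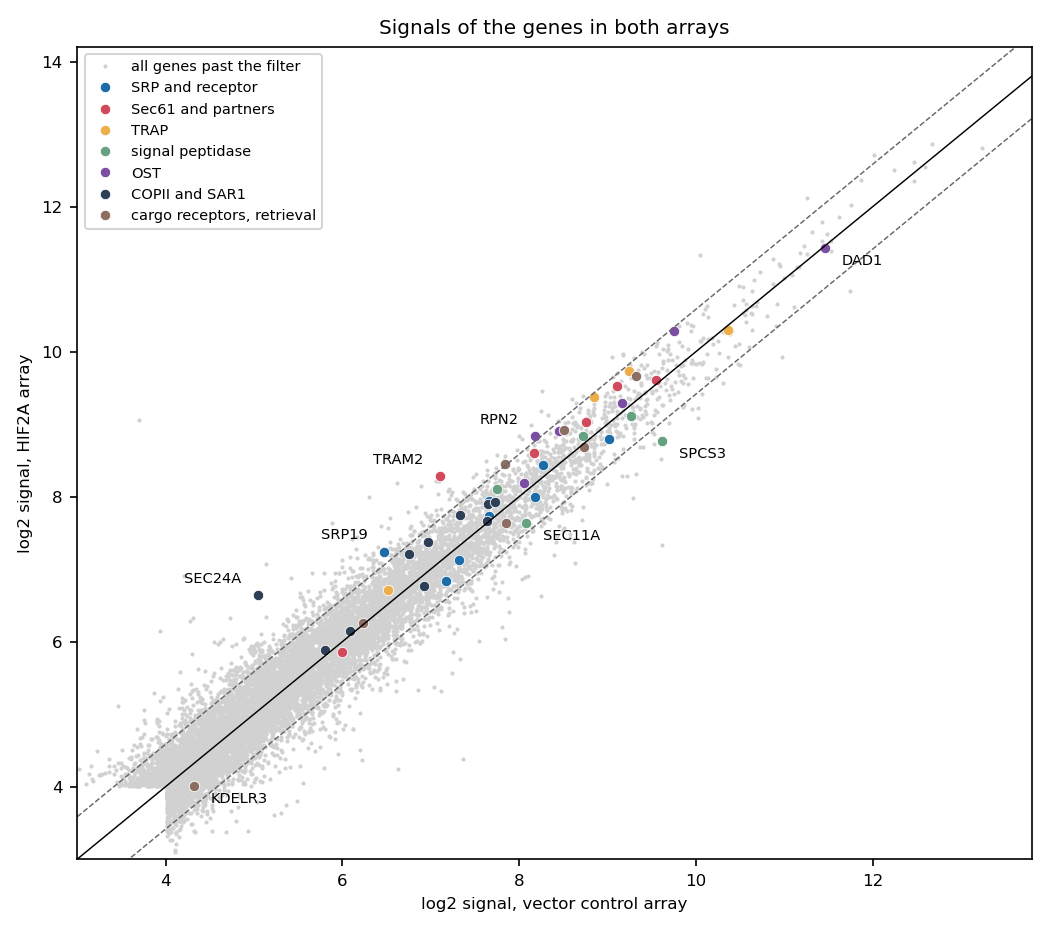
Log2 signal of HIF2A cells (vertical axis) and of vector control cells (horizontal axis) for the 46 genes, coloured by role, and for all genes past the filter in grey; the solid line marks equal signals and the dashed lines 1.5-fold. SEC24A, TRAM2, SRP19, RPN2 and TMED10 stand above the upper dashed line and SPCS3 below the lower one, and KDELR3 is the dimmest.

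Several of these genes lie among chromosomal neighbours that were themselves shifted. The median over the 20 nearest measured genes ran from -0.535 around SPCS3 to 0.305 around SRP19, and it lay beyond 0.2 in either direction for 7 of the 46 genes. These 7 are SPCS3, SEC24B and SEC24D on chromosome 4, SEC24A, SAR1B and SRP19 on chromosome 5, and SPCS2 on chromosome 11. SPCS3, SEC24A, SAR1B and SRP19 differed in the direction of their neighbours. SPCS2 differed by -0.15, where its neighbours had a median of 0.295. SEC24B and SEC24D differed by 0.03 and 0.08, where their neighbours had medians of -0.38 and -0.25. The 3 genes of the set on chromosome 5 had differences of 0.46 to 1.60, where 455 genes of that chromosome had a median of 0.28. The 5 on chromosome 4, where 375 genes had a median of -0.10, ran from -0.86 for SPCS3 to 0.42 for SEC31A. The part of position in these differences was not tested. Less their neighbours, 31 of the 46 genes were higher and 15 lower, with a median of 0.2175, where 49.5% of all genes were higher by the same measure. SEC24A, TRAM2, TMED10 and RPN2 were then the 4 genes at least 1.5-fold higher, beside 4.86% of all genes, and 0 were at least 1.5-fold lower, beside 5.30%.

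**Figure D4:**
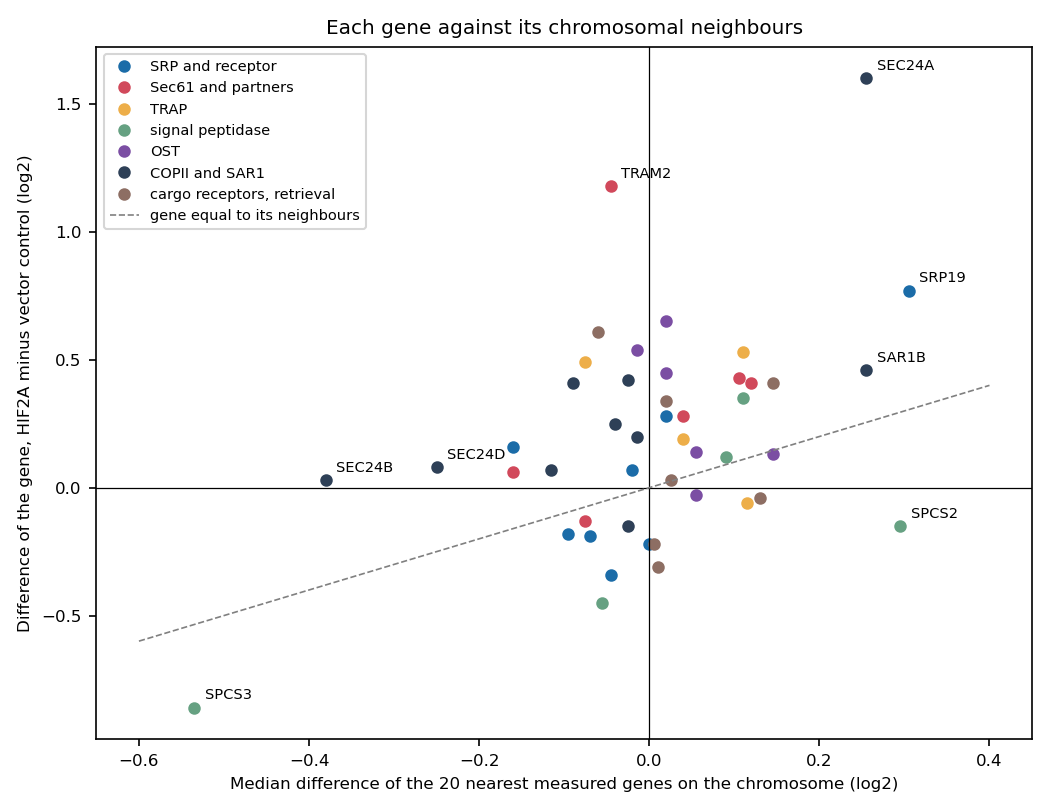
Difference of each of the 46 genes (vertical axis, log2, HIF2A minus vector control) against the median difference of its 20 nearest measured genes on the chromosome (horizontal axis, log2), coloured by role, with a dashed line where both are equal. SPCS3 at the lower left and SRP19, SEC24A and SAR1B at the right lie among neighbours shifted the same way, while TRAM2 at 1.18 lies over neighbours near 0. SPCS2, SEC24B and SEC24D have the opposite sign to their neighbours.

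Further genes of the same pathway, 103 in 8 lists, included 86 past the filter. Of these 50 were higher, 35 lower and 1 equal, with a median of 0.125, beside the 52.6% and 46.1% of all genes. Past 1.5-fold there were 8 higher genes and 3 lower ones, beside 5.67% and 4.76% of all genes. The COPI coat, which carries proteins from the Golgi back to the ER, had 7 of 8 genes higher and a median of 0.34. COPE had 6.28 in HIF2A cells, against 5.70 in vector control cells, COPB1 had 6.71, against 6.14, and COPA had 9.19, against 8.78. COPZ1 was the lower one, at 8.76 in HIF2A cells and 9.03 in vector control cells.

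Enzymes that build the lipid-linked glycan used by OST had a median of 0.16 over 18 genes, 11 higher, 6 lower and 1 equal. The mannosyltransferase gene ALG9 had 7.34 in HIF2A cells, against 6.63, and the glucosyltransferase gene ALG6 had 5.74, against 5.06, both at least 1.5-fold higher. Both also lie among higher neighbours, with medians of 0.28 and 0.275. ALG3 differed by 0.50, and ALG13, DPM1 and MPDU1 by -0.53, -0.30 and -0.26. ALG13 was dim, at 3.84 in HIF2A cells and 4.37 in vector control cells, and passed the filter through the vector control array alone. Among 4 other OST subunits OSTC, which links the STT3A form to the channel, was 1.59-fold lower, at 8.69 in HIF2A cells and 9.36 in vector control cells. OSTC lies on chromosome 4 with a neighbour median of -0.34. KRTCAP2 and TMEM258 differed by 0.36 and 0.28.

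Of 7 other translocon partners 3 were higher and 4 lower, with a median of -0.04. TMEM147 and NCLN, which work together at the translocon for multi-pass proteins, had differences of 0.72 and 0.66, and RRBP1 had 0.30. The lower genes included TMCO1, at -0.12, and SEC61A2 and KTN1, at -0.08 each. The ER membrane complex and tail anchor insertion genes were the list with the lowest median, -0.08 over 16 genes, 5 higher and 11 lower. EMC2 had 7.16 in HIF2A cells, against 7.88 in vector control cells, and its neighbours on chromosome 8 had a median of -0.315. EMC10 differed by -0.57 and GET3 by -0.37, while EMC1, SGTA and BAG6 differed by 0.61, 0.37 and 0.33.

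COPII regulators had a median of 0.155 over 8 genes. SEC31B, a minor paralogue of SEC31A, had 4.73 in HIF2A cells, against 3.75 in vector control cells, a 1.97-fold difference at a dim signal. It is among the 8 higher genes past 1.5-fold, and it passed the filter of 4.01 through the HIF2A array alone. MIA2, at 4.35 in HIF2A cells and 3.95 in vector control cells, passed in the same way. PREB, which loads SAR1 with GTP at the ER, had 8.14, against 7.63. MIA3 and TMEM39A differed by -0.31 and -0.21. The other p24 and ERGIC cargo receptors divided into 8 higher and 7 lower, with YIPF5, ERGIC1 and LMAN2 at 0.72, 0.59 and 0.56 and TMED4, CNIH4 and ERGIC2 at -0.67, -0.42 and -0.29. YIPF5, ERGIC1 and LMAN2 all lie on chromosome 5, among neighbours with medians of 0.475, 0.20 and 0.21. The neighbours of TMED4, CNIH4 and ERGIC2 had medians of -0.41, -0.035 and 0.135.

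Transcription factors of the secretory pathway, listed with sensors and proteases that act on them, had a median of 0.195 over 10 genes, all within 1.5-fold. XBP1 had 10.47 in HIF2A cells and 10.13 in vector control cells. CREB3 and the stress sensor gene EIF2AK3 differed by 0.31 and 0.28, and CREB3L2, DDIT3 and the protease gene MBTPS2 by -0.20, -0.10 and -0.09. The array reads transcript level, so splicing of XBP1 and cleavage of ATF6, by which these factors are switched on, were not measured.

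**Figure D5:**
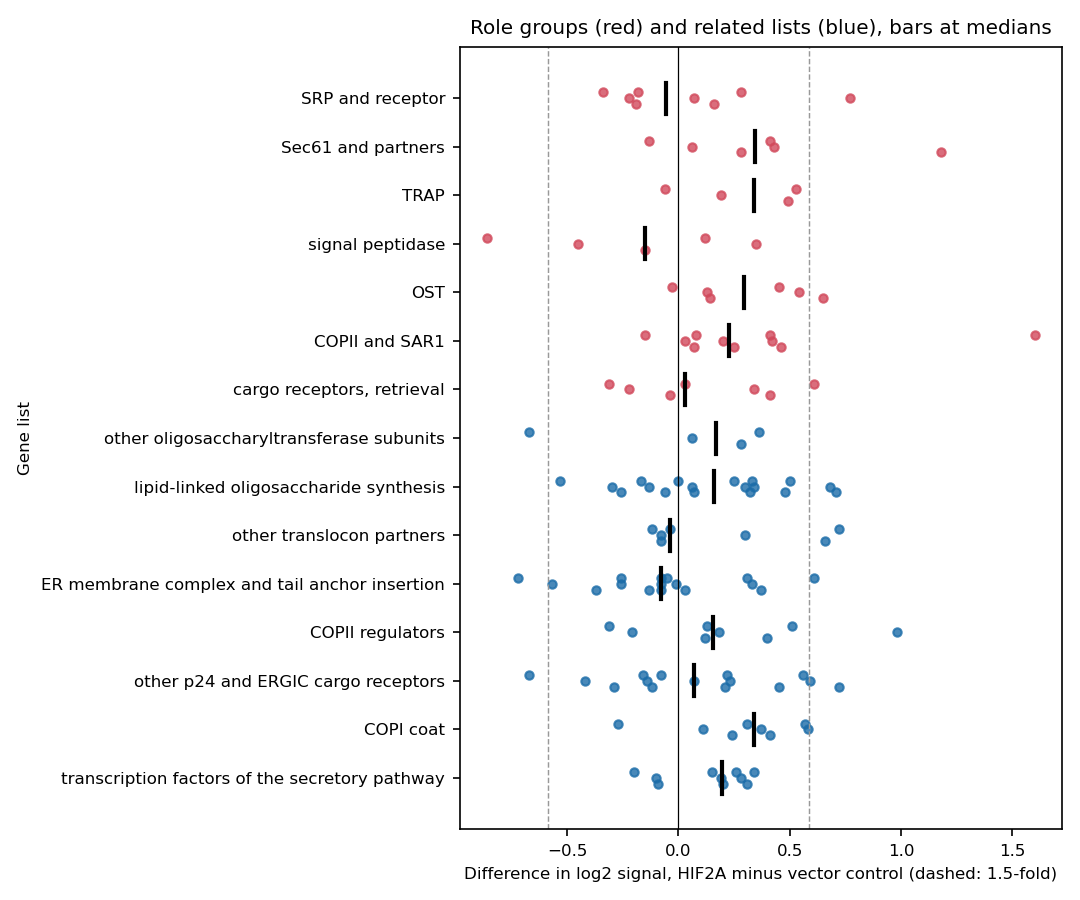
Differences in log2 signal (horizontal axis, HIF2A minus vector control) for each gene (points) of the 7 role groups of the set in red and the 8 related lists in blue, with black bars at the medians and dashed lines at 1.5-fold. The medians run from -0.15 for signal peptidase to 0.345 for the Sec61 group, and the COPI coat at 0.34 is the highest of the related lists.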

How the data were processed

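Total RNA of LP-1 cells was hybridised to 2 arrays, 1 per group, and the vector named in the labels gave the group. The deposited log2 values are signals per probe set that the authors obtained from Affymetrix Expression Console, as the submitters' processing notes record. The sources used here do not give the algorithm, its version, background correction or centring. Base 2 was inferred: the highest value is 13.97, and natural logs of 16-bit readings end at 11.09.

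Of 28869 probe sets, 19310 carry 1 symbol in the array annotation, and 19279 of these were matched by Entrez number to RefSeq GRCh38.p14, used for current names and gene order. A gene took its probe set with the highest mean. The filter threshold, 4.01, is the probe sets' median signal after averaging both arrays. Neighbours are the 20 nearest genes past the filter in gene order. The set, its role groups, the related lists, thresholds and alternatives were chosen with earlier results of these data known, as was the motif search. Windows are shown for the 2 largest positive and 2 largest negative differences. Named genes are all of the set and up to 3 genes per direction of each related list. Alternatives were quantile normalization, median and loess centring (span 0.3, 3 passes), an offset of 32 before taking logs, the filter dropped or set at the 75th percentile, the mean or dimmest probe set, and subtraction of neighbours. Code was tested on simulated data. Python 3.11.15, numpy 2.4.6, pandas 2.3.3, statsmodels 0.14.6 and matplotlib 3.10.9 were used.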

Additional observations from a re-analysis of the deposited data

How the results depend on the processing

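No replicate could be left out, and no test was made. No paired analysis was possible because each group has 1 array. The median of the set ran from 0.124 after loess centring to 0.2175 after subtracting the 20 nearest neighbours, beside medians of all genes of 0.011 and 0 in those settings. The count at least 1.5-fold higher was 4 instead of 5 after loess centring and with 32 added on the linear scale, in both without TMED10, and after subtracting neighbours, without SRP19. The share of all genes past that fold was 5.09% after loess centring, 1.21% with the offset and 4.86% relative to neighbours, beside 5.67%, so these counts stand against different backgrounds. Subtracting neighbours also left 0 genes at least 1.5-fold lower and a signal peptidase median of -0.325. The filter at the 75th percentile removed KDELR3 and gave the cargo receptor and retrieval group a median of 0.185. Of 413 values of single genes in the 9 settings, 4 changed sign, all of genes within 1.5-fold (TRAM1 and MCFD2 with quantile normalization, MCFD2 after loess centring and RPN1 after subtracting neighbours), and 3 shifted by 0.341 or more, the robust SD over all genes: SEC24A with the offset (1.02), and SPCS3 (-0.325) and SEC24B (0.41) relative to neighbours. The filter settings leave a gene's value unchanged and the probe set settings could change only SRP9 and SPCS2, so these counts say little about stability. The signal over background limits KDELR3 most.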

Other observations

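Outside the set, 14 genes past the filter hold the full ER stress response element in their RefSeq start window, and 13 of them had a higher signal in HIF2A cells, where 53.6% of genes past the filter with a window that lacks it did. Their median difference was 0.28 log2 units, beside 0.04 over the genes that lack it, and 0 reached 1.5-fold. They include the ER chaperone genes HSPA5, CANX, HSP90B1 and CALR. HSPA5 had 8.71 in HIF2A cells and 8.17 in vector control cells. CANX had 10.59 in HIF2A cells, against 10.10, HSP90B1 had 11.65, against 11.31, and CALR had 9.87, against 9.63 in vector control cells. XBP1, at 0.34, and the glycan-building mannosyltransferase gene ALG12, at 0.32, are among them too, and SYNPO, at -0.01, was the 1 lower gene. A related element, ERSE-II, was searched in the same windows and showed a smaller difference. The 16 genes past the filter that hold ERSE-II had a median difference of 0.11, beside 0.04 over the genes that lack it. Of these 16 genes 62.5% were higher in HIF2A cells, beside 53.7% of the genes that lack ERSE-II. Both searches were made after the values of the set were seen. The difference between genes with and without either element was not tested.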
